A study of Homo sapiens with 8 samples.

Results

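Cells of MOLM-13, an established human line of acute myeloid leukemia with monocytic character, were carried through courses of the vehicle DMSO at 1% beside an arm given the alkylating drug busulfan. Gene expression was measured by bulk RNA sequencing. The comparison described here sets the libraries after DMSO courses 3 and 5, taken as 2 libraries of a late vehicle state, against the untreated parental library labelled replicate 2. All 3 libraries are of the same line and none met busulfan, so the comparison shows how far vehicle-treated cultures stood from the parental cells. The labels describe 8 samples; DMSO course 1 is given beside the late libraries. The other parental replicate and the busulfan arm were not analysed here. Each state has 1 library, and the labels do not say that courses 3 and 5 are replicate cultures. They give no passage number for the DMSO cultures, so DMSO, number of courses and time in culture cannot be told apart. Genes were taken as members when their mean over the 3 libraries reached 5 CPM, read counts scaled to a common library size, and they differed at least 2-fold in the same direction in both late libraries. The 95% counting interval of each ratio had to lie on one side of equality. In the files, 10682 genes had that mean and 424 were members, 201 higher and 223 lower than in the parental library.

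As background, cells that lack amino acids, or whose kinases sense other stress, translate the transcription factor ATF4, which switches on genes for amino acid synthesis, uptake and tRNA charging. Cells short of oxygen stabilise the HIF factors, which raise glycolytic enzymes and glucose transporters, and cells short of sterols release the SREBP factors, which raise cholesterol synthesis. Myeloid leukemia lines keep a block in differentiation in which progenitor regulators such as GATA2 and HOXA partners coexist with part of the monocyte programme.

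Gene counts totalled between 45095954 in course 5 and 56825811 in the parental library. All 8 myeloid markers checked, among them CD33, MPO, SPI1 and FLT3, averaged at least 1 CPM over the 3 libraries. They summed to between 2222 and 2766 CPM there and to 3068 CPM in course 1. The defining genes HBB and ALAS2 of red cells, PF4 and PPBP of megakaryocytes, CD2 and MS4A1 of lymphocytes, KRT19 of epithelium and DCN of fibroblasts were at 0 counts in the 3 libraries. All 5 erythroid, 4 of 6 lymphoid, 3 of 4 megakaryocyte, 3 of 5 epithelial and 2 of 5 fibroblast markers were under 1 CPM throughout. The summed lymphoid markers ranged from 0.378 to 5.93 CPM and the epithelial ones from 10.4 to 40.2 CPM, the latter mainly from the keratin gene KRT18. KRT18 was itself a member, with 28.5 CPM in parental cells, against 5.67 and 4.34 CPM after courses 3 and 5. Multiply aligned reads made up 13.86% of the parental, 14.24% of the course 3 and 21.33% of the course 5 library. Mitochondrial genes took 13.57%, 15.11% and 9.215% of their gene counts. Course 5 thus stood apart in these shares, and their part in the results was not tested.

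Over all genes, 1950 of 18377 tested (10.6%) passed edgeR's quasi-likelihood test at a Benjamini-Hochberg adjusted p under 0.05, 795 of them higher (4.33%) and 1155 lower (6.29%) in the late libraries. This test has 1 residual degree of freedom, the difference between courses 3 and 5. edgeR moderates that spread of each gene toward a trend over all genes, so the SE and p-values rest largely on pooled spread. The test assumes that the lone parental library varies like courses 3 and 5. Its p-values therefore hold no spread between parental cultures. The 201 higher members were 1.88% and the 223 lower members 2.09% of the genes that reached that mean. All 201 higher and 222 lower members passed the test; both the fold rule and the test use the same 3 libraries, so nothing is read from that count. The lower member that did not pass was SLC6A8, the creatine transporter gene, which differed widely between courses 3 and 5 and was named after its values were seen. Where 3 values stand in a row, they are those of the parental cells, of course 3 and of course 5, in that order. A gene is said to have risen or fallen only where it passed the edgeR test. At the edge of the fold rule, NPL, for a sialic acid lyase, was just inside at 8.298, 16.6 and 22.3 CPM and CXXC5 just outside at 28.3, 56.3 and 64.6 CPM. The cholesterol synthesis gene DHCR7 was just inside at 49.7, 24.8 and 20.9 CPM and the monoglyceride lipase gene MGLL was just outside at 9.21, 4.2002 and 4.61 CPM. In bulk RNA, fewer cells of a type and less RNA per cell cannot be told apart.

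**Figure D1:**
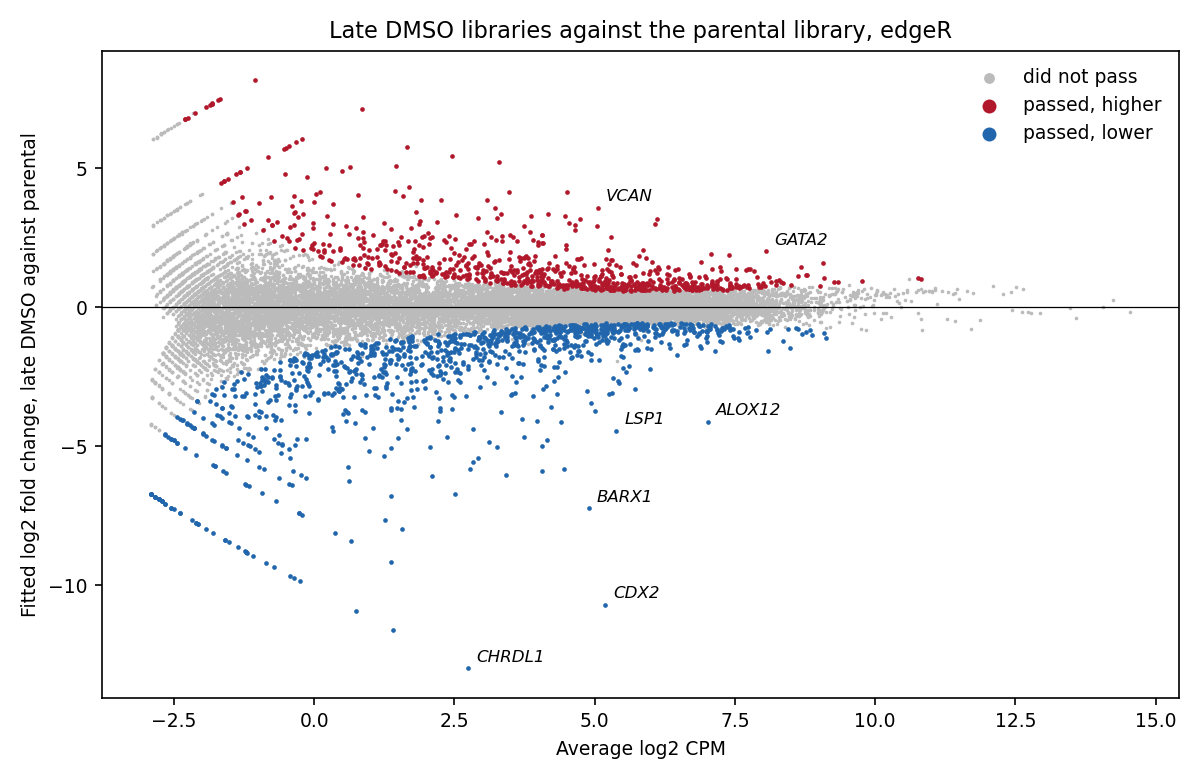
Each point is 1 of the 18377 tested genes, with the average log2 CPM over the 3 libraries on the horizontal axis and edgeR's fitted log2 fold change of the late DMSO libraries against the parental library on the vertical axis. The 795 genes that passed and were higher are red, the 1155 that passed and were lower are blue, and the points along slanted lines at the left have few counts, so their fitted values depend on the prior count.

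Amino acid stress genes had the highest late median of 32 gene lists, and most of them rose. Of 16 measured ATF4 targets and partners 13 rose, 0 fell and 3 did not pass. Their median log2 ratio against parental cells was 1.12 in course 3 and 1.52 in course 5. Over all 13561 genes that averaged 1 CPM or more, the level used for every list, 727 rose and 896 fell, with medians of 0.01 in course 3 and 0.02 in course 5. In DMSO course 1 the same list lay at -0.54, below the parental library. For CHAC1, whose product degrades glutathione, and ASNS, which makes asparagine, the stretch before the start site is shown. Both genes rose, and both hold a match to the C/EBP-ATF element that ATF4 binds with C/EBP partners. The stretches are from the RefSeq promoter table on GRCh38.p14, 5′ to 3′ along the gene, at chr15:40953221-40953319 on the plus strand and chr7:97872419-97872526 on the minus strand, with the match in capitals.

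CHAC1: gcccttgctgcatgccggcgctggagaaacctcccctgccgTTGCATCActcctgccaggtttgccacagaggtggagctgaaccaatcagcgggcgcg
ASNS: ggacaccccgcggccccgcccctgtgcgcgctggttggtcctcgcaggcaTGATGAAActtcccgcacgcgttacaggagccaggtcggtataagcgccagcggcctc

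The letters searched were TGATGNAA on both strands, in windows from 250 bases before to 50 bases after each start site. The last base of the match lay 202 bases before the CHAC1 start, read on the opposite strand, and 61 bases before that of ASNS. Such a match was in 4 of 24 promoters of this list (16.7%), those of ASNS, ATF3, CEBPG and CHAC1 among 14 symbols found in the table. It was in 5 of 21 promoters of the amino acid transporter list and in 3.62% of all 35116 promoters. A match describes the letters only.

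CHAC1 stood at 15.7 CPM in parental cells, against 49.8 and 51.6 CPM after courses 3 and 5 (edgeR log2 fold change 1.69, SE 0.20, adjusted p = 2.64e-05), and at 0.302 CPM in course 1. Both late libraries were above the parental library and lay close to each other, with course 1 far below all of them. ASNS stood at 9.24, 22.9 and 25.2 CPM (edgeR log2 fold change 1.38, SE 0.22, adjusted p = 0.000549), against 3.02 CPM in course 1. TRIB3, a pseudokinase that ATF4 induces, stood at 59.99, 149.6 and 294 CPM (edgeR log2 fold change 1.89, SE 0.31, adjusted p = 0.000714) and was higher in course 5 than in course 3. CEBPB, a C/EBP factor of myeloid maturation and stress, stood at 12.03, 45.8 and 54.7 CPM (edgeR log2 fold change 2.06, SE 0.21, adjusted p = 6.89e-06). Unlike CHAC1 and ASNS, CEBPB was also above the parental library in course 1, at 34.2 CPM. The same held for NUPR1, described below, whose 7.4 CPM in course 1 lay above its course 3 value. INHBE, an inhibin beta subunit gene, stood at 2.67, 9.14 and 9.19 CPM and at 2 counts in course 1. NUPR1, a small stress-induced chromatin protein gene, had the largest change on the list at 1.03, 4.12 and 7.75 CPM (edgeR log2 fold change 2.52, SE 0.43, adjusted p = 0.000929). The ATF4 transcript itself, at 458, 530.1 and 579 CPM, did not pass (edgeR log2 fold change 0.28, SE 0.23, adjusted p = 0.509). Nor did the phosphatase subunit gene PPP1R15A or the lipoprotein receptor gene VLDLR.

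Part of the amino acid transporters rose too. Of 11 measured amino acid transporters 5 rose and 0 fell, with medians of 0.68 in course 3 and 0.87 in course 5 against -1.03 in course 1. SLC7A5 and SLC3A2 encode the light and heavy chains of the large neutral amino acid exchanger. SLC7A5 stood at 317, 558 and 755 CPM (edgeR log2 fold change 1.05, SE 0.26, adjusted p = 0.014). SLC3A2 passed at 178, 314 and 358 CPM (edgeR log2 fold change 0.92, SE 0.22, adjusted p = 0.0106). The cationic amino acid transporter gene SLC7A1 stood at 185, 309.8 and 406 CPM and the cystine importer gene SLC7A11 at 36.3, 63.02 and 66.4 CPM, and both rose. The glycine transporter gene SLC6A9 rose at an adjusted p of 0.0497 in edgeR, close to the threshold, with 3.904, 6.25 and 10.1 CPM. For each of these 5 genes the course 3 value lay between the parental and the course 5 value.

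Serine synthesis rose while part of the folate cycle fell. Of 12 measured serine, glycine and one-carbon enzymes 5 rose and 2 fell, with medians of 0.27 in course 3 and 0.79 in course 5 against -0.75 in course 1. PHGDH, the entry enzyme of serine synthesis, stood at 157, 291 and 384 CPM (edgeR log2 fold change 1.10, SE 0.23, adjusted p = 0.005). PSPH, its last enzyme, stood at 28.8, 49.01 and 57.1 CPM (edgeR log2 fold change 0.88, SE 0.19, adjusted p = 0.0061). The mitochondrial folate enzyme genes MTHFD2, at 239.9, 449 and 619 CPM, and ALDH1L2, at 88.5, 194 and 267 CPM, rose as well. PSAT1, the serine synthesis enzyme between PHGDH and PSPH, also rose. The 2 genes that fell were SHMT1, the cytosolic serine hydroxymethyltransferase, at 32.6, 19.6 and 15.5 CPM (edgeR log2 fold change -0.89, SE 0.20, adjusted p = 0.00831), and TYMS. TYMS, the thymidylate synthase, stood at 128, 81.8 and 87.9 CPM (edgeR log2 fold change -0.59, SE 0.17, adjusted p = 0.0392). The mitochondrial enzymes of this list that passed and the cytosolic SHMT1 thus moved in opposite directions in the same libraries.

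Among 18 measured cytosolic tRNA synthetases 4 rose and 1 fell, with medians of 0.36 in course 3 and 0.71 in course 5. WARS, which charges tryptophan tRNA, stood at 116, 216 and 353 CPM (edgeR log2 fold change 1.29, SE 0.26, adjusted p = 0.00407). AARS for alanine stood at 242, 444 and 638 CPM and SARS for serine at 77.2, 152 and 226 CPM. GARS for glycine rose at an edgeR adjusted p of 0.0361, and LARS for leucine did not pass at 280.3, 389 and 522 CPM (edgeR log2 fold change 0.70, SE 0.24, adjusted p = 0.077). In course 1 the median of this list was -0.73.

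Enzymes of arginine metabolism and transsulfuration, in a list drawn up after the values had been seen, had 5 of 8 measured genes higher and 1 lower. ASS1, which joins citrulline and aspartate on the way to arginine and has pseudogene copies that make its level uncertain, stood at 227, 529.9 and 849 CPM (edgeR log2 fold change 1.60, SE 0.29, adjusted p = 0.00168). GATM, of creatine synthesis, stood at 3.87, 19.3 and 27.2 CPM (edgeR log2 fold change 2.58, SE 0.27, adjusted p = 1.13e-05). The transsulfuration genes CTH and CBS encode the enzymes that turn homocysteine into cysteine. CTH stood at 9.99, 28.4 and 38.4 CPM (edgeR log2 fold change 1.74, SE 0.23, adjusted p = 0.000103). CBS stood at 4.93, 10.3 and 11.6 CPM (edgeR log2 fold change 1.15, SE 0.27, adjusted p = 0.0114). AGMAT rose as well. ARG2, the mitochondrial arginase, fell at 3.38, 0.896 and 0.856 CPM. GAMT did not pass, nor did ASL, at 17.5, 18.4 and 12.2 CPM, so not all enzymes of this list moved together. The medians of the list, 1.14 in course 3 and 1.54 in course 5, with -0.48 in course 1, are a description only, because the list was chosen for these genes.

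Chaperones of the endoplasmic reticulum did not move with the ATF4 genes. Of 17 measured members 2 rose and 5 fell, with medians of -0.37 in course 3 and -0.14 in course 5. HSPA5, the main lumenal chaperone BiP, stood at 328, 175 and 199 CPM (edgeR log2 fold change -0.81, SE 0.20, adjusted p = 0.0129). The calcium-binding chaperone gene CALR stood at 796, 420.1 and 414 CPM (edgeR log2 fold change -0.93, SE 0.22, adjusted p = 0.0112). The secreted stress factor MANF, at 30.5, 13.7 and 13.7 CPM, and CRELD2, at 15.9, 6.13 and 5.95 CPM, fell further, and HSP90B1 also fell. Each of these 5 was lower in both late libraries and in course 1 than in the parental library. The 2 that rose were HERPUD1 and SEL1L, which serve degradation of misfolded proteins.

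Hypoxia targets had the lowest late median of those 32 lists, and part of glycolysis fell with them. Of 20 measured hypoxia targets 1 rose and 8 fell, with medians of -0.58 in course 3 and -0.96 in course 5, while course 1 lay at 1.05. Of 17 glycolytic enzymes 0 rose and 6 fell, with medians of -0.52 in course 3 and -0.75 in course 5 against 0.29 in course 1. Promoter stretches of ALDOC, a brain-type aldolase, and BNIP3, a mitochondrial outer membrane protein of hypoxic cells, are shown because both fell more than 2-fold and both hold the hypoxia response core. They are from the same RefSeq table, at chr17:28576896-28576973 and chr10:131982002-131982106, both on the minus strand, with matches to ACGTG on either strand in capitals, where overlapping matches run together.

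ALDOC: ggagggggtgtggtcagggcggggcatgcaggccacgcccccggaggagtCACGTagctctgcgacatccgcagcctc
BNIP3: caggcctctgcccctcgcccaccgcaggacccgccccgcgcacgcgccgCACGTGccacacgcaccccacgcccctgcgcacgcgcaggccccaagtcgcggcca

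The capitals end 24 bases before the ALDOC start and 129 bases before that of BNIP3. This short core was in 15 of 37 promoters of glycolytic enzymes and 10 of 25 promoters of hypoxia targets, and in 21.4% of all promoters.

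ALDOC stood at 133 CPM in parental cells, against 41.7 and 14.6 CPM after courses 3 and 5 (edgeR log2 fold change -2.24, SE 0.35, adjusted p = 0.000439), and at 324 CPM in course 1. BNIP3 stood at 96.3, 43.2 and 23.6 CPM (edgeR log2 fold change -1.53, SE 0.25, adjusted p = 0.000612), against 267 CPM in course 1. For both genes course 1 was the highest of the 4 libraries and course 5 the lowest. PFKFB4, which sets the level of a phosphofructokinase activator, stood at 101, 31.8 and 7.92 CPM (edgeR log2 fold change -2.35, SE 0.43, adjusted p = 0.00171), against 312 CPM in course 1. CA9, the hypoxia-induced carbonic anhydrase, stood at 7.52, 0.756 and 0.132 CPM (edgeR log2 fold change -4.05, SE 0.52, adjusted p = 7.95e-05). The hydroxylase gene EGLN3 stood at 2.84, 0.557 and 0.0658 CPM. ADM, for the vessel-dilating peptide adrenomedullin, fell from 5.48 CPM to values of 1.15 CPM in course 3 and 0.505 CPM in course 5. The glucose transporter gene SLC2A3 fell at 163, 70.6 and 56.1 CPM. VEGFA, the vascular growth factor, did not pass at 423, 404 and 466 CPM (edgeR log2 fold change 0.04, SE 0.22, adjusted p = 0.944). The HIF hydroxylase gene EGLN1 was the 1 member that rose, at 74.6, 110.02 and 124 CPM. In all, 16 of 20 members lay below and 2 above the parental level in both late libraries, and 11 did not pass.

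PKM, the pyruvate kinase, stood at 859.7, 451 and 356 CPM (edgeR log2 fold change -1.09, SE 0.23, adjusted p = 0.0054). PGK1, the phosphoglycerate kinase, stood at 614, 352 and 276 CPM (edgeR log2 fold change -0.97, SE 0.22, adjusted p = 0.00938). LDHA, the lactate dehydrogenase subunit, stood at 646, 408 and 319 CPM (edgeR log2 fold change -0.83, SE 0.23, adjusted p = 0.0267). ALDOA and PGAM1 fell too, whereas GAPDH, at 3379, 2329 and 2505 CPM, did not pass (edgeR log2 fold change -0.48, SE 0.31, adjusted p = 0.368). ENO2, the neuronal enolase, was at 90.6, 63.04 and 17.1 CPM and did not pass (edgeR log2 fold change -1.17, SE 0.41, adjusted p = 0.0849), with courses 3 and 5 far apart. The hexokinases HK1 and HK2 were at 37.9, 40.8 and 48.03 CPM and 98.9, 106 and 132 CPM and did not pass.

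**Figure D2:**
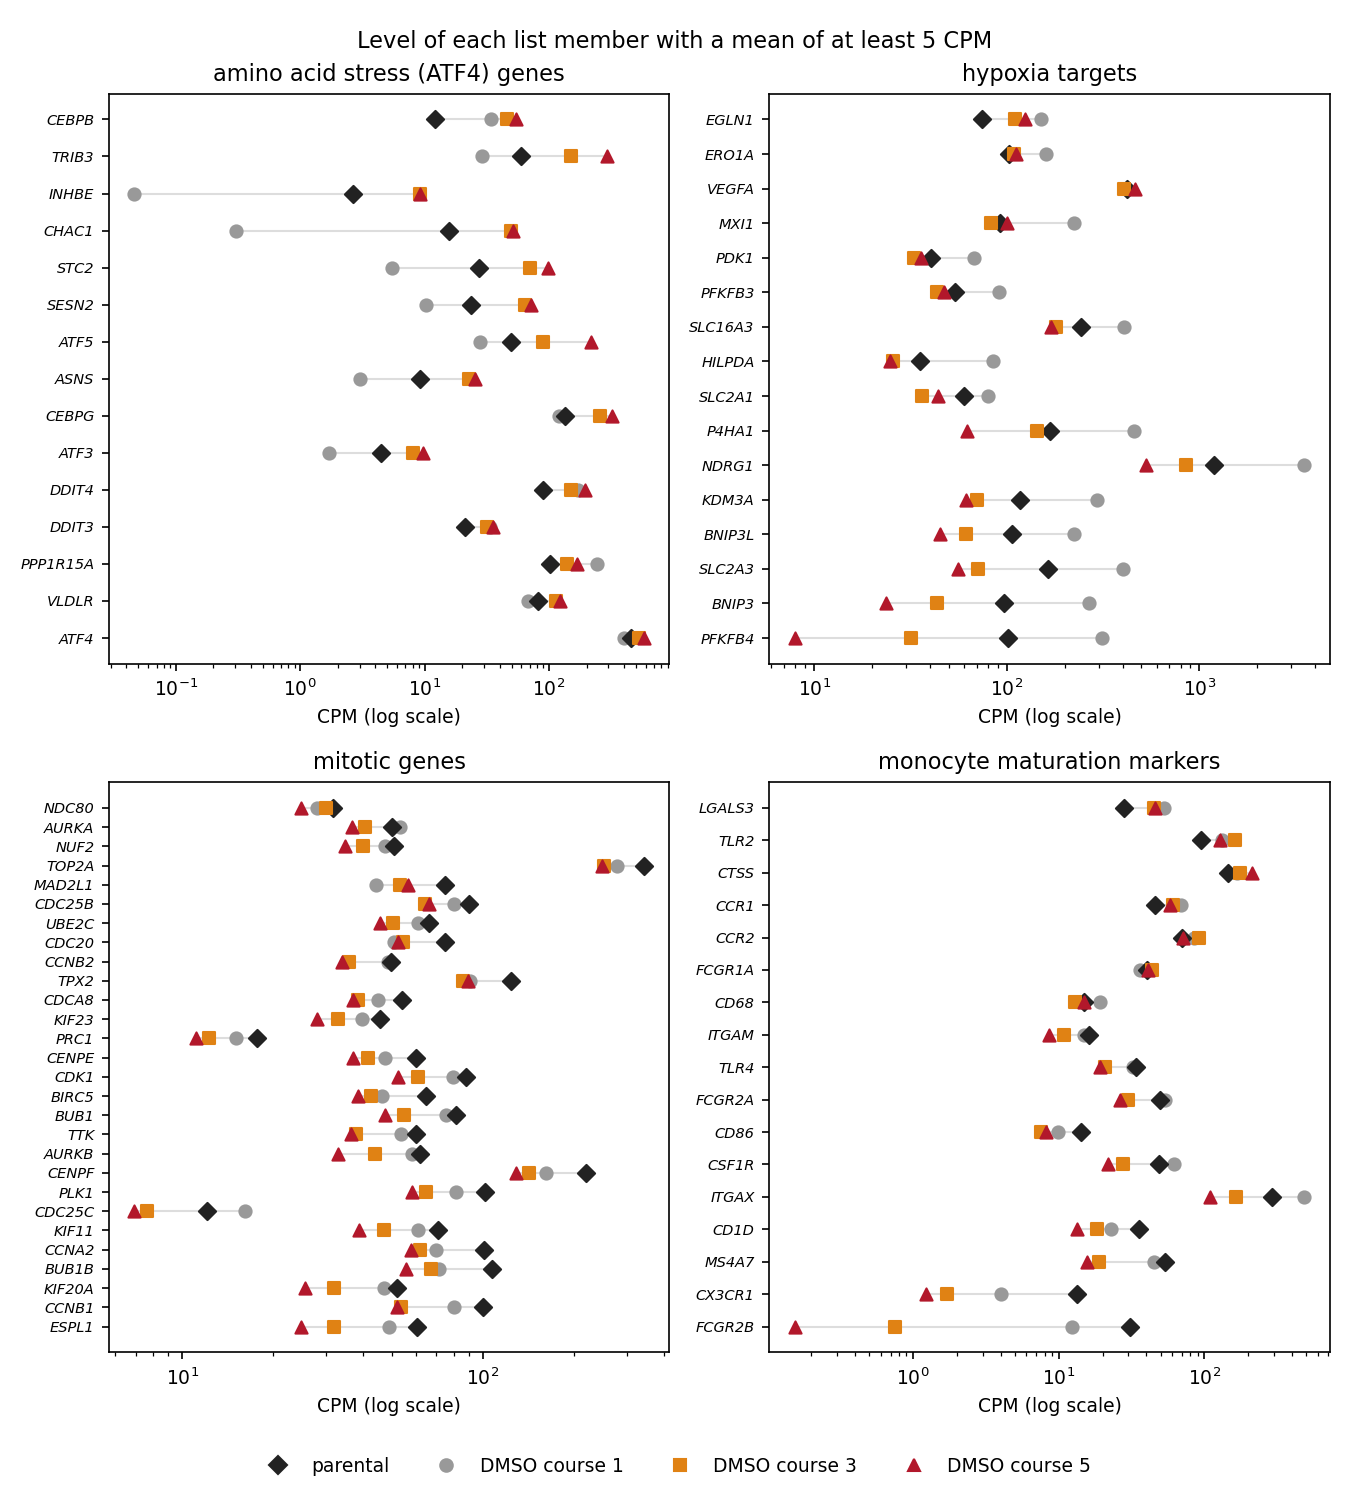
Level of each member with a mean of at least 5 CPM in 4 gene lists, on a logarithmic CPM axis, with diamonds for the parental library, circles for DMSO course 1, squares for course 3 and triangles for course 5, 1 library each and genes sorted by their mean late log2 ratio. For most ATF4 genes course 1 lies left of the parental library and both late libraries right of it, for most hypoxia targets this order is the other way round, and all 28 mitotic genes lie left of the parental library in courses 3 and 5.

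Part of cholesterol synthesis, a theme of the study, fell in the late libraries. Of 20 measured enzymes 10 fell and 0 rose, and 18 lay below the parental level in both late libraries, with medians of -0.49 in course 3 and -0.69 in course 5; course 1 lay at 0.32. HMGCS1, an early enzyme of the pathway, stood at 61.2, 26.8 and 23.4 CPM (edgeR log2 fold change -1.29, SE 0.18, adjusted p = 0.000159), against 91.4 CPM in course 1. MVK, the mevalonate kinase, stood at 15.7, 9.77 and 7.68 CPM (edgeR log2 fold change -0.84, SE 0.24, adjusted p = 0.035). ACAT2, DHCR7, FDPS, IDI1, MVD, EBP and SQLE, which act at steps from the precursor to the last reductions, fell as well. PMVK lay above the parental level in both late libraries at 26.2, 32.5 and 38.6 CPM without passing. The sterol regulatory element, searched as TCACNCCAC on both strands, was in 0 of 20 promoters of these enzymes in the windows used and in 1.13% of all promoters.

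Among 13 measured genes of cholesterol uptake, export and control 1 rose and 1 fell. INSIG1, which holds SREBP back and is itself a sterol-regulated gene, stood at 99.4, 50.999 and 35.4 CPM (edgeR log2 fold change -1.20, SE 0.20, adjusted p = 0.000813). ABCA1, the exporter of cholesterol to lipoproteins, stood at 18.8, 30.8 and 39.2 CPM (edgeR log2 fold change 0.90, SE 0.21, adjusted p = 0.00959), so that synthesis genes fell while an export gene rose. Of 12 genes of fatty acid synthesis and desaturation 1 rose and 2 fell. Both that fell were desaturases of polyunsaturated fatty acids. FADS2 stood at 47.7, 12.6 and 6.32 CPM (edgeR log2 fold change -2.33, SE 0.27, adjusted p = 3.21e-05). FADS1 stood at 36.5, 14.4 and 14.5 CPM (edgeR log2 fold change -1.34, SE 0.19, adjusted p = 0.000193). The elongase gene ELOVL5 rose at 106, 169 and 175 CPM. Of 13 lipid droplet genes 0 rose and 3 fell, namely the droplet coat gene PLIN5 at 6.98, 3.82 and 2.28 CPM, MGLL, and the droplet fusion gene CIDEB at 59.05, 37.4 and 36.7 CPM. None of 15 fatty acid oxidation genes passed in edgeR; CPT1A, the gate of fatty acid entry into mitochondria, was at 109, 87.4 and 84.3 CPM (edgeR log2 fold change -0.35, SE 0.17, adjusted p = 0.237).

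Mitochondrial copy number is the study's other theme, and it was not measured here. None of 13 mitochondrially encoded protein genes passed in edgeR, and their medians had opposite signs, 0.18 in course 3 and -0.63 in course 5. MT-ND5, a subunit of complex I, was at 7722, 8765 and 4520.4 CPM (edgeR log2 fold change -0.22, SE 0.44, adjusted p = 0.817). MT-ND6, on the other strand of the mitochondrial genome, was at 177, 160.004 and 78.03 CPM (edgeR log2 fold change -0.57, SE 0.28, adjusted p = 0.226). Course 5 lay below the parental library and course 3 close to it, and course 5 is also the library with the lower mitochondrial and the higher multiply aligned share. None of 16 mitochondrial DNA maintenance genes passed in edgeR; TOP1MT, the mitochondrial topoisomerase, was at 233, 309.8 and 339.99 CPM and POLRMT, the mitochondrial RNA polymerase, at 77.8, 97.2 and 99.5 CPM.

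Metallothioneins, small proteins that bind zinc and copper, fell without exception among those measured; this list too was drawn up after the values had been seen. All 6 of 6 measured members fell, with medians of -1.27 in course 3 and -2.20 in course 5 against 0.81 in course 1. MT2A stood at 199, 84.4 and 67.3 CPM (edgeR log2 fold change -1.39, SE 0.19, adjusted p = 0.000114) and MT1E at 100.4, 30.97 and 15.8 CPM (edgeR log2 fold change -2.10, SE 0.26, adjusted p = 5.58e-05). In course 1 they were at 357 CPM and 171 CPM. MT1X, MT1G, MT1F and MT1H were also lower in both late libraries, for example MT1X at 76.6, 36.01 and 22.1 CPM. These genes are near-identical copies, so the split of reads between them is uncertain. In the glutathione and NRF2 list 3 of 22 measured members rose, among them SLC7A11 of the transporter list, and 2 fell. HMOX1, the heme oxygenase, had the largest fall at 12.05, 0.756 and 0.658 CPM (edgeR log2 fold change -4.08, SE 0.32, adjusted p = 3.59e-07). GSTM3, a glutathione transferase, had the largest rise at 0.237, 4.46 and 5.003 CPM (edgeR log2 fold change 4.31, SE 0.46, adjusted p = 1.3e-05), and was at 4.57 CPM in course 1.

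Part of the genes of cell division fell. Of 28 mitotic genes 14 fell and 0 rose, and all 28 lay below the parental level in courses 3 and 5, with medians of -0.53 in course 3 and -0.71 in course 5 against -0.23 in course 1. Of 28 DNA replication genes 10 fell and 0 rose, with medians of -0.54 in course 3 and -0.57 in course 5 and a lower one of -0.80 in course 1; 25 of them lay below and 1 above the parental level in both late libraries. Stretches before the start sites of ESPL1, the separase that releases sister chromatids, and BUB1B, a spindle checkpoint kinase, are shown because both fell and hold letters of the cell cycle homology region, an element known from promoters of late cell cycle genes. They are at chr12:53268218-53268298 and chr15:40160996-40161068, both on the plus strand of GRCh38.p14, with TTTGAA in capitals.

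ESPL1: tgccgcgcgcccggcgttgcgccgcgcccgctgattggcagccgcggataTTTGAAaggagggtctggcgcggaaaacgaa
BUB1B: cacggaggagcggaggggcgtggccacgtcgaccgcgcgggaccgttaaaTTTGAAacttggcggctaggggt

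The match ends 26 bases before the ESPL1 start and 18 bases before that of BUB1B. TTTGAA on either strand was in 18 of 31 promoters of mitotic genes (58.1%, 16 of 23 symbols), in 1 of 31 promoters of replication genes and in 15.2% of all promoters.

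ESPL1 stood at 60.3 CPM in parental cells, against 31.97 and 24.9 CPM after courses 3 and 5 (edgeR log2 fold change -1.08, SE 0.19, adjusted p = 0.00117). BUB1B stood at 107, 67.2 and 55.6 CPM (edgeR log2 fold change -0.80, SE 0.18, adjusted p = 0.00796). CCNB1, the cyclin that drives entry into mitosis, stood at 99.9, 53.4 and 51.7 CPM (edgeR log2 fold change -0.93, SE 0.17, adjusted p = 0.00182). The kinesin gene KIF20A, of cell cleavage, and CCNA2, the cyclin of S phase and G2, fell at 51.9, 32.03 and 25.5 CPM and 101, 61.8 and 57.4 CPM. In each of these 5 genes course 5 was the lowest library. NDC80, of the outer kinetochore, was the member nearest to the parental level at 31.8, 30.1 and 24.9 CPM (edgeR log2 fold change -0.21, SE 0.19, adjusted p = 0.565). Among replication genes RRM2, the small subunit of ribonucleotide reductase, stood at 89.4, 46.5 and 41.1 CPM (edgeR log2 fold change -1.03, SE 0.17, adjusted p = 0.000863). CDC45, of the replicative helicase, stood at 58.9, 34.3 and 27.6 CPM and the flap nuclease FEN1 at 61.6, 34.6 and 32.4 CPM. The helicase subunit MCM6 was at 153, 135 and 158 CPM and the licensing factor CDT1 at 98.3, 101 and 111 CPM, and neither passed.

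Several p53 targets rose in the same libraries. Of 22 measured targets 6 rose and 0 fell, with medians of 0.17 in course 3 and 0.64 in course 5. The course 1 median, at 0.28, was above that of course 3. CDKN1A, the p21 inhibitor of cyclin-dependent kinases, stood at 97.3, 149.8 and 248 CPM (edgeR log2 fold change 1.03, SE 0.26, adjusted p = 0.0153). The RNA-binding protein gene ZMAT3 stood at 18.6, 40.4 and 65.7 CPM (edgeR log2 fold change 1.51, SE 0.25, adjusted p = 0.000813). The receptor gene EDA2R stood at 1.94, 4.24 and 10.7 CPM (edgeR log2 fold change 1.94, SE 0.45, adjusted p = 0.0106). In all 3 the course 5 value was the higher of the late libraries. GADD45A, SESN3 and TP53INP1 were the others that rose, while MDM2, at 103, 100.4 and 120.3 CPM, and BAX, at 118, 131 and 170.01 CPM, did not pass. Of 25 crosslink and mismatch repair genes, which act on busulfan lesions, 2 fell and 0 rose. FANCA stood at 78.5, 55.1 and 39.2 CPM (edgeR log2 fold change -0.73, SE 0.20, adjusted p = 0.0251) and the helicase gene BRIP1 at 27.04, 17.5 and 17.01 CPM. The median of that list was near 0, at -0.02 in course 3 and -0.03 in course 5, and its late median changed sign with total-count scaling. Both measured linker histones outside the histone clusters, chosen after their values were seen, rose. H1F0, which accumulates in slowly dividing cells, stood at 44.4, 94.5 and 103 CPM (edgeR log2 fold change 1.15, SE 0.19, adjusted p = 0.000626) and H1FX at 65.6, 137 and 144 CPM.

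Most regulators of blood progenitors did not pass the test, while GATA2, CEBPB and EGR1 rose. Of 18 measured myeloid transcription factors 3 rose and 0 fell. LMO4, given below, lies outside that list. EGR1, an immediate early factor, stood at 89.8, 244 and 119 CPM (edgeR log2 fold change 1.02, SE 0.30, adjusted p = 0.0407) and was high in course 3 and closer to the parental level in course 5. SPI1, the master regulator PU.1, was at 241, 262 and 252 CPM, MYB at 400.2, 446 and 442 CPM and CEBPA at 492, 637 and 737 CPM, and none of these passed. RUNX1 was at 172, 266 and 250.2 CPM and did not pass (edgeR log2 fold change 0.58, SE 0.20, adjusted p = 0.08). LMO4, a LIM-domain partner of transcription factors, stood at 69.4, 191 and 189 CPM (edgeR log2 fold change 1.45, SE 0.20, adjusted p = 0.000143).

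Homeobox genes fell in part. Of 13 measured homeobox genes and HOXA partners 4 fell and 0 rose. CDX2 and BARX1 fell to under 1 CPM, with CDX2 going from 108 CPM to 0.119 CPM in course 3 and 0 counts in course 5. MEIS1, the HOXA partner that maintains MLL-rearranged leukemia, stood at 69.3, 32.7 and 30.8 CPM (edgeR log2 fold change -1.13, SE 0.17, adjusted p = 0.000394). HOXA11 stood at 23.3, 14.2 and 11.6 CPM (edgeR log2 fold change -0.86, SE 0.22, adjusted p = 0.0158). IRX3, an Iroquois homeobox gene outside that list, stood at 125, 20.1 and 12.1 CPM (edgeR log2 fold change -2.96, SE 0.23, adjusted p = 3.13e-07). IRX5 of the same family, named after its values were seen, stood at 11.8, 5.35 and 5.75 CPM.

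Part of the monocyte genes fell, and most measured mast cell and basophil genes rose. Of 17 measured monocyte maturation markers 9 fell and 1 rose, with medians of -0.70 in course 3 and -0.81 in course 5 against 0.12 in course 1. CX3CR1, the fractalkine receptor of patrolling monocytes, stood at 13.3, 1.71 and 1.23 CPM (edgeR log2 fold change -3.17, SE 0.30, adjusted p = 3.46e-06). MS4A7, a membrane protein of monocytes and macrophages, stood at 53.7, 19.03 and 15.7 CPM (edgeR log2 fold change -1.63, SE 0.19, adjusted p = 2.4e-05). The integrin gene ITGAX stood at 292, 164 and 108 CPM (edgeR log2 fold change -1.10, SE 0.22, adjusted p = 0.00366), and course 1 was above the parental library at 485 CPM. CSF1R, the macrophage growth factor receptor, and the lipid-presenting molecule CD1D also fell, at 49.02, 27.5 and 21.7 CPM and 35.7, 18.3 and 13.4 CPM, as did FCGR2A, FCGR2B, CD86 and TLR4. LGALS3, the galectin of macrophages, was the 1 marker that rose, at 28.002, 45.3 and 45.9 CPM, and CD14 was at or below 1 CPM in the 3 libraries. FCGR2B has near-identical neighbours and its level is uncertain for that reason.

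The list of mast cell and basophil genes holds 14 symbols, of which 6 averaged at least 1 CPM and were measured. Of these 6 genes 4 rose and 0 fell, with medians of 1.34 in course 3 and 1.31 in course 5. In course 1 the median was higher than in both. The tryptase gene TPSB2 stood at 11.8, 101 and 88.8 CPM (edgeR log2 fold change 3.00, SE 0.21, adjusted p = 1.33e-07). TPSAB1 rose at 0.845, 13.5 and 11.2 CPM, so it reached the mean of 1 CPM only through the libraries where it was high. TPSD1, outside that list and named after its values were seen, stood at 4.01, 34.6 and 30.9 CPM. Tryptase copies share sequence and are uncertain as single genes. GATA2 stood at 88.1, 369.9 and 339 CPM (edgeR log2 fold change 2.01, SE 0.22, adjusted p = 1.85e-05). SIGLEC6, a sialic acid receptor of mast cells, stood at 40.3, 61.8 and 64.7 CPM (edgeR log2 fold change 0.65, SE 0.18, adjusted p = 0.0289). FCER1G, the signalling chain of the IgE receptor, was at 11.7, 14.2 and 9.19 CPM and did not pass (edgeR log2 fold change -0.00, SE 0.27, adjusted p = 0.999). KIT, the defining receptor of mast cells, was under 1 CPM and fell, at 0.558, 0.0796 and 0.0439 CPM (edgeR log2 fold change -3.11, SE 0.91, adjusted p = 0.0383). The tryptases and KIT thus moved in opposite directions.

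Granule and oxidase genes of neutrophils fell in part. Of 9 measured neutrophil granule genes 3 fell and 0 rose. RNASE2, given below, lies outside that list. The bactericidal protein gene BPI stood at 45.8, 14.1 and 12.1 CPM (edgeR log2 fold change -1.81, SE 0.19, adjusted p = 9.72e-06) and the protease gene CTSG at 209.7, 83.2 and 90.8 CPM (edgeR log2 fold change -1.27, SE 0.18, adjusted p = 0.000169). The calgranulin gene S100A9 stood at 3.26, 0.677 and 0.263 CPM (edgeR log2 fold change -2.78, SE 0.49, adjusted p = 0.00121). RNASE2, the eosinophil-derived ribonuclease, stood at 164, 52.97 and 47.9 CPM (edgeR log2 fold change -1.70, SE 0.17, adjusted p = 6.44e-06). Lists of the phagocyte NADPH oxidase, the S100 proteins and the annexins were drawn up after values had been seen. Of 6 oxidase subunits 2 fell, among them NCF1, which has near-identical pseudogenes, at 42.5, 17.4 and 14.4 CPM. The membrane subunit genes CYBB, at 12.5, 8.24 and 7.75 CPM, and CYBA, at 228, 231 and 216 CPM, did not pass. Of 7 S100 genes 3 fell and 1 rose. S100A4, linked to cell motility, stood at 255, 95.8 and 73.8 CPM (edgeR log2 fold change -1.59, SE 0.19, adjusted p = 4.75e-05), and S100P rose at 1.01, 3.18 and 8.36 CPM. Of 8 annexins 2 fell, ANXA2 at 53.9, 22.2 and 20.6 CPM and ANXA1 at 24.03, 11.4 and 8.38 CPM, while ANXA5 was at 48.4, 41.7 and 41.7 CPM and did not pass.

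The list of cytokine receptors and STAT5 output, which also holds cytokine genes, had members that moved in both directions. Of its 20 measured members 3 rose and 2 fell. CSF2RB, the common beta chain of the GM-CSF, IL-3 and IL-5 receptors, stood at 32.2, 83.4 and 74.8 CPM (edgeR log2 fold change 1.29, SE 0.19, adjusted p = 0.000259). IL10RA, of the IL-10 receptor, stood at 31.6, 16.7 and 13.8 CPM (edgeR log2 fold change -1.05, SE 0.20, adjusted p = 0.00247). CSF1R, given above, was the other member of this list that fell. The STAT5 target CISH and the cytokine gene OSM rose, at 67.3, 124 and 97.1 CPM and 5.88, 12.1 and 10.6 CPM. FLT3, a receptor gene mutated in this line, was at 392, 617 and 539 CPM and did not pass (edgeR log2 fold change 0.56, SE 0.23, adjusted p = 0.148). IL2RG, the common gamma chain, was among the members farthest from the parental library at 24.03, 0.916 and 0.746 CPM (edgeR log2 fold change -4.85, SE 0.28, adjusted p = 1.44e-08). IL2RG lies outside the list of cytokine receptors and is not in its counts. Of 18 interferon-stimulated genes 4 fell and 0 rose. IFITM3, which blocks viral entry, stood at 8.55, 3.07 and 3.66 CPM and OAS1, a sensor of double-stranded RNA, at 3.85, 0.816 and 0.351 CPM. The protease gene USP18 stood at 4.07, 1.47 and 1.18 CPM and IFITM1 at 7.402, 0.0199 and 0 CPM. Of 17 immediate early genes 3 rose and 2 fell; EGR3 stood at 3.18, 0.916 and 0.351 CPM (edgeR log2 fold change -2.31, SE 0.48, adjusted p = 0.0046) and NR4A2, a nuclear receptor, at 7.84, 3.88 and 3.69 CPM. ERK feedback genes had 1 of 11 higher, SPRY1 at 7.84, 11.7 and 18.2 CPM, and 1 lower, ETV4 at 34.001, 23.1 and 19.9 CPM. The sign of that list's late median changed with total-count scaling. Upstream of ERK, SOS1, the exchange factor for RAS, stood at 103, 264 and 254 CPM (edgeR log2 fold change 1.33, SE 0.21, adjusted p = 0.000429). KSR1, the scaffold of the RAF and MEK kinases, stood at 66.2, 176 and 168 CPM (edgeR log2 fold change 1.38, SE 0.20, adjusted p = 0.0002).

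**Figure D3:**
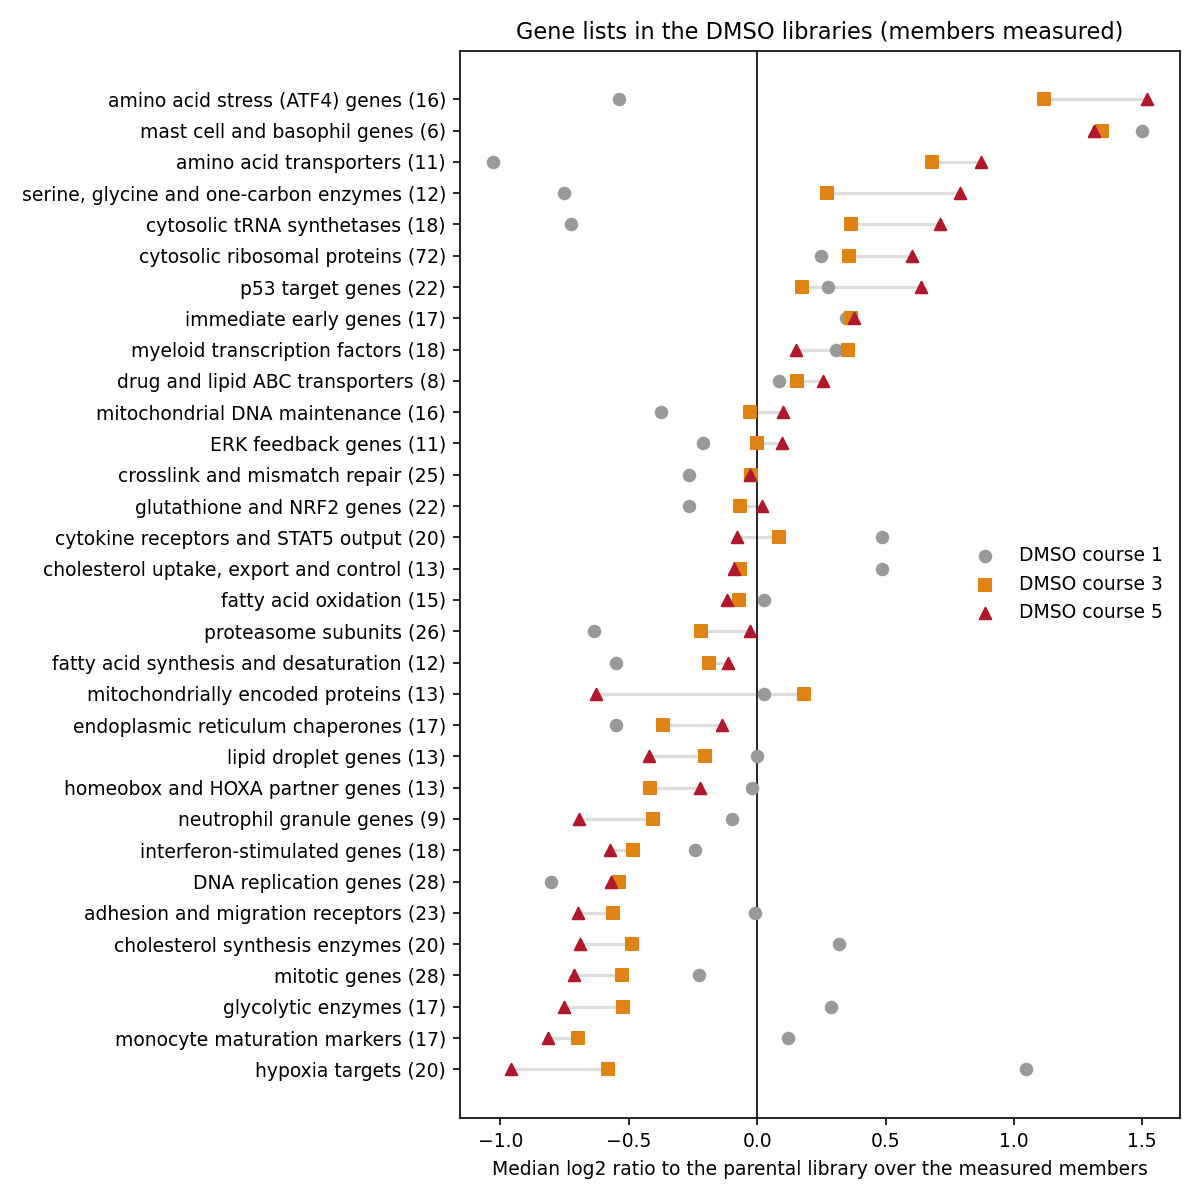
Median log2 ratio against parental cells over the measured members of each of the 32 lists that are not cell type markers, with circles for DMSO course 1, squares for course 3 and triangles for course 5, 1 library each, and the number of members in brackets. Courses 3 and 5 lie on the same side of 0 for most lists, with mitochondrially encoded proteins at 0.18 and -0.63 as the widest split, and with the lists sorted by their median over both late libraries the ATF4 list, at 1.12 and 1.52, and the hypoxia list, at -0.58 and -0.96, stand at the ends. In course 3 alone the mast cell list at 1.34 and the monocyte list at -0.70 lie farther out.

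Adhesion genes fell more often than they rose. Of 23 measured adhesion and migration receptors 10 fell and 2 rose, among the former several integrins. ITGB5, a vitronectin receptor chain, stood at 69.8, 10.7 and 6.41 CPM (edgeR log2 fold change -3.03, SE 0.23, adjusted p = 3.35e-07). ICAM1, a ligand of leukocyte integrins, stood at 35.5, 13.5 and 10.6 CPM (edgeR log2 fold change -1.56, SE 0.21, adjusted p = 0.000102). ITGA5, of the fibronectin receptor, stood at 387, 228 and 192 CPM (edgeR log2 fold change -0.88, SE 0.20, adjusted p = 0.00938). PLXNC1, a semaphorin receptor, stood at 7.33, 0.637 and 0.527 CPM (edgeR log2 fold change -3.65, SE 0.36, adjusted p = 4.5e-06). SPP1, FAT1, CD9 and NRP2 fell to at most 3.17 CPM in either late library. The integrins that rose were ITGA4, the alpha chain of VLA-4, at 109, 201 and 199 CPM (edgeR log2 fold change 0.87, SE 0.20, adjusted p = 0.00827), and ITGAL. ITGAL, the alpha chain of LFA-1, stood at 1091, 2296 and 2059 CPM (edgeR log2 fold change 1.00, SE 0.30, adjusted p = 0.0458). CD44, CXCR4 and SELPLG did not pass.

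Genes of BMP and activin signalling, in a list drawn up after values had been seen, moved in both directions. Of 12 measured members 5 rose and 2 fell. INHBE, already counted in the ATF4 list, was among those that rose. Among the ligands GDF11 stood at 43.5, 116 and 109 CPM (edgeR log2 fold change 1.37, SE 0.19, adjusted p = 0.000155). INHBA, the activin A subunit, stood at 11.9, 35.3 and 26.3 CPM (edgeR log2 fold change 1.37, SE 0.23, adjusted p = 0.000752). Among the receptors BMPR2 and ACVR1 rose, at 6.46, 14.7 and 21.9 CPM and 3.33, 9.81 and 8.56 CPM. The type I receptor gene BMPR1A fell at 13.7, 1.27 and 1.67 CPM (edgeR log2 fold change -3.22, SE 0.30, adjusted p = 2.54e-06). NOG, which encodes the BMP antagonist noggin, fell at 41.4, 10.7 and 7.72 CPM (edgeR log2 fold change -2.17, SE 0.21, adjusted p = 5.55e-06). CHRDL1, a further BMP antagonist outside that list, stood at 19.7 CPM before treatment and had 0 counts in both late libraries. A floor of 3 counts per library gives log2 ratios of -8.37 or lower in course 3 and -8.23 or lower in course 5. Course 1 had 0.0928 CPM of CHRDL1, so this gene was low in all 3 DMSO libraries.

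**Figure D4:**
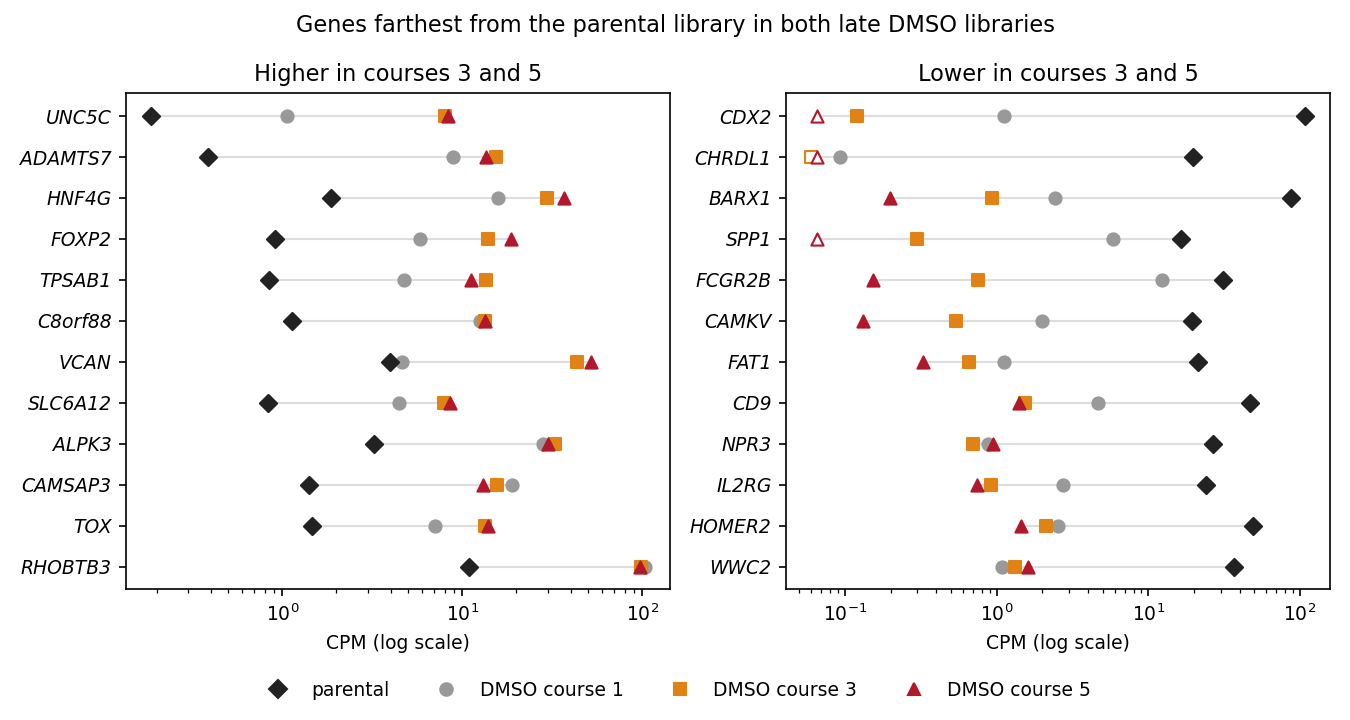
CPM on a logarithmic axis of the 12 higher and 12 lower members farthest from the parental library in both late libraries, with diamonds for the parental library, circles for DMSO course 1, squares for course 3 and triangles for course 5, 1 library each. Open symbols are 0 counts drawn at the floor of 3 counts; UNC5C runs from 0.186 to 8.34 CPM and CDX2 from 108 CPM to 0 counts.

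The members farthest from the parental library included receptors, transporters and matrix genes. UNC5C, a receptor for the guidance cue netrin, stood at 0.186, 8.002 and 8.34 CPM (edgeR log2 fold change 5.44, SE 0.44, adjusted p = 5.22e-07), a rise from 11 counts in the parental library. VCAN, the matrix proteoglycan versican, stood at 3.97, 43.2 and 52.2 CPM (edgeR log2 fold change 3.59, SE 0.24, adjusted p = 6.98e-08), with course 1 close to the parental library at 4.62 CPM. SLC6A12, a betaine and GABA transporter, stood at 0.828, 7.903 and 8.54 CPM, the kinase gene ALPK3 at 3.23, 32.96 and 30.02 CPM and the nuclear factor gene TOX at 1.45, 13.3 and 13.9 CPM. ADAMTS7, HNF4G, FOXP2, TPSAB1, C8orf88, CAMSAP3 and RHOBTB3 completed the 12 of that direction. In the other direction HOMER2, a scaffold of glutamate receptor signalling, stood at 49.4, 2.13 and 1.45 CPM (edgeR log2 fold change -4.78, SE 0.24, adjusted p = 4.06e-09). WWC2 stood at 36.6, 1.31 and 1.602 CPM and CAMKV, a kinase-like vesicle protein gene, at 19.4, 0.537 and 0.132 CPM. CDX2, CHRDL1, BARX1, SPP1, FCGR2B, FAT1, CD9, NPR3 and IL2RG completed the 12. Among members with at least 100 CPM in the parental library or in both late libraries, a level most reached only on the side where they were high, ALOX12, the 12-lipoxygenase of arachidonic acid, stood at 348, 29.1 and 10.9 CPM (edgeR log2 fold change -4.12, SE 0.34, adjusted p = 7.8e-07). LSP1, an actin-binding protein of leukocytes, stood at 114, 8.32 and 2.13 CPM (edgeR log2 fold change -4.44, SE 0.41, adjusted p = 2.61e-06). LIN7A, a scaffold of cell polarity, stood at 48.03, 175 and 182 CPM (edgeR log2 fold change 1.90, SE 0.20, adjusted p = 1.13e-05) and FRY at 193, 515 and 522 CPM (edgeR log2 fold change 1.43, SE 0.23, adjusted p = 0.000617).

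Of the higher members 73 (36.3%) and of the lower members 131 (58.7%) were also at least 2-fold from DMSO course 1 in the same direction in both late libraries. The share of all genes that far from course 1 was not counted. Members were already chosen for distant late values, so these shares are a description only. VCAN and UNC5C were among the higher members of this kind. So was KCNG1, a potassium channel subunit, with 6.08, 4.804, 34.7 and 57.7 CPM, where course 1 stands in second place. In the same order ORM1, an acute-phase plasma protein gene, stood at 9.31, 8.52, 39.2 and 68.7 CPM, and BATF3, a transcription factor of dendritic cells, at 2.69, 0.998, 11.2 and 16.6 CPM. RPS6KA2, a kinase downstream of ERK, stood at 5.15, 3.81, 20.05 and 50.2 CPM. FAM84B and the nuclear receptor corepressor gene NRIP1 were the others named in that direction. Among the lower ones, TGM5, a transglutaminase, stood at 99.1, 113, 18.1 and 11.5 CPM, and JAML, a junctional adhesion molecule of leukocytes, at 13.6, 13.6, 2.57 and 1.62 CPM. RGS1, which shortens signals of G-protein-coupled receptors, and DTX4, a Notch pathway ubiquitin ligase, stood at 47.8, 28.2, 4.44 and 3.401 CPM and 15.8, 11.1, 2.19 and 1.21 CPM. The lower genes of this kind also included LSP1 and, with course 1 already below the parental library, SPP1 at 16.5, 5.87, 0.299 and 0 CPM, FCGR2B at 30.96, 12.3, 0.756 and 0.154 CPM, and CDX2 at 108, 1.11, 0.119 and 0 CPM. In UNC5C course 1, at 1.07 CPM, was already above the parental library. The distance of the late libraries from course 1 was part of how these genes were chosen.

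The late libraries were not identical to each other. Course 5 was farther from the parental library than course 3 in 139 of the 201 higher and 184 of the 223 lower members. The same share over all genes was not counted, so nothing particular to the members is read from these counts. Among the members, 3 higher and 37 lower ones were at least 2-fold apart between courses 3 and 5 with an interval that excluded equality, against 93 of all 10682 genes. The 93 include these members, and members were chosen by their ratios in these same libraries, so the counts are a description only. SLC6A8, at 82.4, 38.7 and 4.43 CPM, and RPS6KA2, at 5.15, 20.05 and 50.2 CPM, were among the members so far apart. So were PFKFB4, ALDOC and LSP1. In each of these 5 genes the late library farther from the parental one was course 5.

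The remaining lists held few genes that passed. Of 72 measured cytosolic ribosomal protein genes 1 rose, RPL13 at 1018, 1863 and 2344 CPM (edgeR log2 fold change 1.05, SE 0.31, adjusted p = 0.0392). In all, 69 lay above the parental level in both late libraries, with medians of 0.36 in course 3 and 0.60 in course 5. RPL41 and RPS26 were 2 of those that did not, at 22.1, 16.8 and 10.8 CPM and 8.196, 5.97 and 4.08 CPM. No gene of 26 proteasome subunits passed in edgeR, with medians of -0.22 in course 3 and -0.03 in course 5; PSMB2 was at 98.1, 73.2 and 81.2 CPM (edgeR log2 fold change -0.35, SE 0.18, adjusted p = 0.241). Of 8 drug and lipid ABC transporters 1 rose, ABCA1, and the drug exporter genes ABCC1, at 3.35, 4.598 and 4.696 CPM, and ABCC4, at 49.3, 57.6 and 78.4 CPM, did not pass. Numbered zinc finger genes made up 4.48% of the higher and 1.79% of the lower members, against 3.10% of all genes that reached 5 CPM on average. Protein-coding genes were 178 of the higher and 208 of the lower members.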

How the data were processed

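RNA of MOLM-13 cells was sequenced in bulk. The authors deposited 1 table per library of raw counts for Ensembl genes, made with FastQC 0.11.5, TopHat2 2.0.11 and HTSeq 0.6p1 on hg19, per the submitters' processing notes. Every ID was found in GENCODE release 29, whose assembly is GRCh38, so the build is uncertain and no gene coordinates are given from the files. The files' names describe reverse-stranded counting. Summary rows, which hold reads aligned to several places and other reads not counted for a gene, were left out. They held 24.95% of parental reads and 27.14%, 24.57% and 29.81% after 1, 3 and 5 courses.

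CPM was computed with TMM-scaled library sizes over the 4 libraries. Genes kept by filterByExpr (minimum count 10, minimum total 15) were tested in R 4.3.3 with edgeR 4.0.16 (quasi-likelihood, Benjamini-Hochberg adjustment). The SE printed with each edgeR value was back-calculated as the absolute log2 fold change divided by the square root of the test's F statistic. limma 3.58.1 and DESeq2 1.42.0 served as alternatives, and the functions were tested on simulated data. Ratios of single libraries carry exact binomial intervals (95%), which reflect counting error and no other spread, with 0 counts set to 3. Lists hold members with a mean of at least 1 CPM. Some genes are in more than 1 list, among them SLC7A11, INHBE, CEBPB, GATA2, EGR1 and ABCA1, so the counts of different lists are not separate. GSTT1 was the 1 symbol without a match.

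Named genes are the 12 members in each direction with the largest smaller-of-2 log2 ratio, the first 8 among those with at least 100 CPM, the first 8 that also differ from course 1, and up to 5 members per list by mean late log2 ratio. Other named genes show which members of a list did or did not pass, or were chosen after their values were seen. The comparison, the members and the 38 lists, 6 of them cell type markers, were chosen with earlier results of these data known, and 7 further lists were added after the values had been seen. A few genes are not reported here.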

Additional observations from a re-analysis of the deposited data

Results flagged for a closer look

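The list median of the 13 mitochondrially encoded protein genes lay on opposite sides of the parental library in courses 3 and 5, with 2 of them, MT-CO3 and MT-ND6, below it in both. Against parental cells their median log2 ratio was 0.18 in course 3 and -0.63 in course 5, a difference of -0.81. MT-ATP6, a subunit of ATP synthase, was at 8668, 9455 and 5528 CPM (parental cells first, then courses 3 and 5), and MT-CO3, of cytochrome c oxidase, at 14598, 14525 and 7835 CPM. The difference was not tested, since each course has 1 library. Course 5 also had the lower mitochondrial share of gene counts, 9.215% against 15.11% in course 3, and the higher share of reads aligned to several places, 21.33% against 14.24%.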

How the results depend on the processing

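The count of genes past the edgeR test, 1950, kept within 1.5 times under the 7 alternatives run, from 1373 at a mean of at least 5 CPM to 2510 without the filter. DESeq2 called 1379 of 16595 genes with an adjusted p, of which 1299 passed edgeR in the same direction. With 1 late library there is no residual degree of freedom, so no test was run. The 201 higher members became 380 at a mean of at least 1 CPM, 80 at 20 CPM, 578 at a fold of 1.5 and 46 at a fold of 4, and 240.0 to 324 when 1 late library was left out, the higher number without course 3. The 223 lower ones became 493, 78, 610.0 and 62 under the same settings and 239 to 497 with 1 late library left out, the higher number again without course 3. These counts follow from the thresholds and the smaller demand on 1 library. Leaving out 1 late library in turn gave median log2 ratios that changed sign for mitochondrially encoded proteins (-0.628 to 0.182), mitochondrial DNA maintenance (-0.0281 to 0.102), glutathione and NRF2 genes (-0.0668 to 0.0175) and cytokine receptors (-0.0782 to 0.0831), and a range of -0.0265 to -0.0246 for crosslink repair, whose late median was 0.01. With total counts crosslink repair lay at -0.0538 and ERK feedback genes at -0.0307. Among named genes, which were not past the test, the sign changed for ABCA2 (-0.302 to 0.000446), FCER1G (-0.351 to 0.279), MT-ND5 (-0.772 to 0.183), MT-ATP8 (-0.701 to 0.156) and MT-ATP6 (-0.649 to 0.125). The cause was not tested. Of the other values of named genes under the alternatives, 736 stayed within their spread and 31 moved without a change of sign. The limits are 1 parental library, 1 residual degree of freedom and counts under 10 reads for several of the lowest genes.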

Other observations

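All genes given here were chosen from the members after their values were seen, and no list of their kind was counted. The intermediate filament gene VIM stood at 708, 352 and 349 CPM for parental cells and then courses 3 and 5 (edgeR log2 fold change -1.01, SE 0.21, adjusted p = 0.00518). The linker gene PLEC stood at 487, 179 and 149 CPM (edgeR log2 fold change -1.57, SE 0.20, adjusted p = 7.52e-05). The actin-severing gelsolin gene GSN stood at 113, 43.5 and 35.7 CPM (edgeR log2 fold change -1.52, SE 0.18, adjusted p = 3.27e-05) and the actin-binding thymosin gene TMSB10 at 254, 108 and 104 CPM. Both late libraries were below the parental library and close to each other for VIM and TMSB10. Among lower members with secreted products, the angiopoietin gene ANGPT1 stood at 14.1, 0.657 and 0.439 CPM (edgeR log2 fold change -4.67, SE 0.33, adjusted p = 1.33e-07) and the hepatocyte growth factor gene HGF at 40.8, 7.07 and 4.48 CPM (edgeR log2 fold change -2.82, SE 0.24, adjusted p = 1.07e-06). The chitinase-like gene CHI3L1 stood at 623, 274 and 179 CPM (edgeR log2 fold change -1.46, SE 0.24, adjusted p = 0.000714). For CHI3L1 course 1 was above the parental library, at 726 CPM.

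Among the higher members, the hedgehog ligand gene SHH stood at 1.91, 9.296 and 8.996 CPM (edgeR log2 fold change 2.26, SE 0.31, adjusted p = 0.00016). The Frizzled receptor genes FZD3 and FZD6 stood at 20.3, 70.3 and 75.2 CPM (edgeR log2 fold change 1.84, SE 0.19, adjusted p = 1.03e-05) and 2.28, 9.14 and 12.9 CPM (edgeR log2 fold change 2.27, SE 0.32, adjusted p = 0.000196). APP, the amyloid precursor protein gene, stood at 103, 232 and 303 CPM (edgeR log2 fold change 1.38, SE 0.23, adjusted p = 0.000689). BACE1, for the protease that cleaves its product, stood at 3.23, 15.5 and 18.2 CPM (edgeR log2 fold change 2.38, SE 0.27, adjusted p = 2.42e-05). PPARG, the nuclear receptor of lipid storage, stood at 5.46, 16.2 and 20.6 CPM (edgeR log2 fold change 1.75, SE 0.26, adjusted p = 0.00027), above the parental library in both late libraries and at 11.1 CPM in course 1.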
